A study of Mus musculus with 12 samples.

Results

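The miR-26a and miR-26b arms were followed in small RNA libraries of adipose tissue extracellular vesicles (EVs, membrane particles that cells release) and of hippocampus. Members were the entries of the count tables named mmu-miR-26a-5p, mmu-miR-26b-5p, mmu-miR-26a-2-3p or mmu-miR-26b-3p, written below without the mouse prefix. All 4 were listed among the 1084 entries of the EV table and among the 1163 entries of the hippocampus table. The groups were EVs of mice on a high-fat diet (HFD), EVs of chow-fed mice, hippocampus of HFD mice and hippocampus of chow-fed mice, with 3 libraries each. Every mouse was a wild-type male C57BL/6J, and the design text gives 12 weeks for both diets. The sources used here give no age at sampling, fat depot or pooling of animals. Nothing in the labels ties the 3 libraries of a group to different animals, and the p-values may therefore reflect technical spread alone. The hippocampus libraries taken as chow are headed LFD in the deposited table, and that assignment is an inference from chow being the only other diet.

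miRNAs are short RNAs cut from hairpin precursors, and the arm loaded into an Argonaute protein guides it to mRNAs that pair with the seed near the 5′ end. In the miR-26 family the 5p arm is the usual guide and the 3p arms are passenger strands. Known targets include the histone methyltransferase Ezh2. miR-26 was tied to fat cell formation as a promoter of differentiation in human adipocyte precursors, whereas in mice it has been described as restraining fat cell progenitors. In the brain it is abundant, and in rat hippocampal neurons miR-26a was linked to neurite outgrowth. The hairpins sit within the Ctdsp phosphatase genes, and in zebrafish miR-26b represses the host gene ctdsp2 during the formation of neurons.

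The mature sequences show which arms the counts can tell apart, and the seed (bases 2 to 8, in capitals) shows which arms would be expected to recognise the same sites. All are from RefSeq on GRCm38.p6, where each of the 4 members and miR-26a-1-3p, the passenger of the other miR-26a hairpin, was found by name.
miR-26a-5p: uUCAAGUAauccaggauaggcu
miR-26b-5p: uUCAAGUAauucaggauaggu
miR-26a-2-3p: cCUGUUCUugauuacuuguuuc
miR-26b-3p: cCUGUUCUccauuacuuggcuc
miR-26a-1-3p: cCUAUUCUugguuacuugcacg
Both guides carry the seed UCAAGUA, which no other of 1679 mouse mature miRNA names in RefSeq shares. Counted from the 5′ end, miR-26a-5p and miR-26b-5p differ by C11U and C21U, and miR-26b-5p is 1 base shorter, at 21 against 22 bases. The passengers miR-26a-2-3p and miR-26b-3p share 18 of 22 bases and the seed CUGUUCU, which, unlike the guide seed, further mouse miRNAs in RefSeq also carry. By contrast miR-26a-1-3p differs from miR-26a-2-3p within the seed, by G4A.

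In the hairpins the mature arms are in capitals. They are shown because both miR-26a hairpins give the identical 5p arm and can be separated by their 3p arms alone.
Mir26a-1: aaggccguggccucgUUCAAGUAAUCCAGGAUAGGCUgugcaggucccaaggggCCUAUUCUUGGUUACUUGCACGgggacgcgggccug
Mir26a-2: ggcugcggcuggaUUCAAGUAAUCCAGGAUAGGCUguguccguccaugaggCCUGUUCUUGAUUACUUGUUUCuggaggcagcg
Mir26b: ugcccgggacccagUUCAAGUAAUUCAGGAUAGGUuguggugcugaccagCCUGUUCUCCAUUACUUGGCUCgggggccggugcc
On GRCm38.p6, Mir26a-1 lies at chr9:119031796-119031885 on the plus strand, in an intron of Ctdspl. Mir26a-2 lies at chr10:126995530-126995613 on the plus strand, in an intron of a protein-coding transcript of Ctdsp2. Its last base also lies in an exon of other Ctdsp2 transcripts. Mir26b lies at chr1:74394310-74394394 on the plus strand, in an intron of Ctdsp1. All host genes run in the same direction as their hairpin.

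HFD EV libraries held 1825488 to 5941955 counts and chow EV libraries 2120171 to 2294878. HFD hippocampus libraries held 11143775 to 12874600 counts and chow hippocampus libraries 2331091 to 5723918, so in that tissue depth and diet cannot be told apart. In addition, 5 entries of the hippocampus table were blank in all HFD libraries and in no chow library, and whether both diets were counted in 1 run is not stated. A list of 5 neural miRNAs held 0.227 to 0.311% of counts in HFD EVs and 0.143 to 0.273% in chow EVs, against 30.6 to 31.8% in HFD hippocampus and 29.6 to 33.6% in chow hippocampus. A list of 5 miRNAs common in fat included none restricted to it. This list held 23.7 to 30.7% of counts in HFD EVs and 38.5 to 61.2% in chow EVs. Most of its counts in EVs came from miR-148a-3p, the most abundant miRNA there. The mean of miR-148a-3p was 212999 CPM (counts scaled to a common library size) in HFD EVs and 517656 CPM in chow EVs. In EVs the summed share therefore follows chiefly that miRNA. The log2 fold changes of HFD over chow EVs were below 0 for all 5 miRNAs of the list. They were -1.97 (miR-143-3p), -1.28 (miR-148a-3p), -0.93 (miR-193b-3p), -0.59 (miR-30a-5p) and -0.33 (miR-378a-3p), against a median of -0.13 over all tested miRNAs. Only miR-143-3p passed after adjustment (edgeR quasi-likelihood test, adjusted p = 0.0217). In these bulk samples, fewer cells or vesicles of a kind and less RNA in each cannot be told apart.

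The guide miR-26a-5p was one of the most abundant miRNAs in both sample types, and its partner miR-26b-5p was less abundant everywhere. By count, miR-26a-5p ranked 7, 8 and 11 in the HFD EV libraries and 12, 9 and 8 in the chow EV libraries. It ranked 4, 4 and 3 in HFD hippocampus and 5, 4 and 5 in chow hippocampus. Hippocampus ranks, totals and shares include both miR-9-5p and miR-9b-3p, whose levels were nearly equal. Whether the same reads were counted under both names was not tested. miR-26b-5p ranked between 29 and 34 in HFD EVs and between 40 and 60 in chow EVs, and between 82 and 92 in HFD hippocampus and between 79 and 90 in chow hippocampus. Passenger arms were scarce in all 12 libraries.

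As a share of all miRNA counts, the 4 members held 2.66, 2.59 and 1.78% in HFD EVs and 1.11, 1.60 and 1.30% in chow EVs. They held 5.37, 4.43 and 5.19% in HFD hippocampus and 3.61, 3.83 and 2.18% in chow hippocampus. Nearly all of this was miR-26a-5p. The exact 95% binomial interval of a single library's share spanned at most 1.28% of the share to either side for miR-26a-5p and 5.90% for miR-26b-5p. These intervals cover counting error alone, because reads carry no molecular identifier here and PCR copies are counted again.

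**Figure D1:**
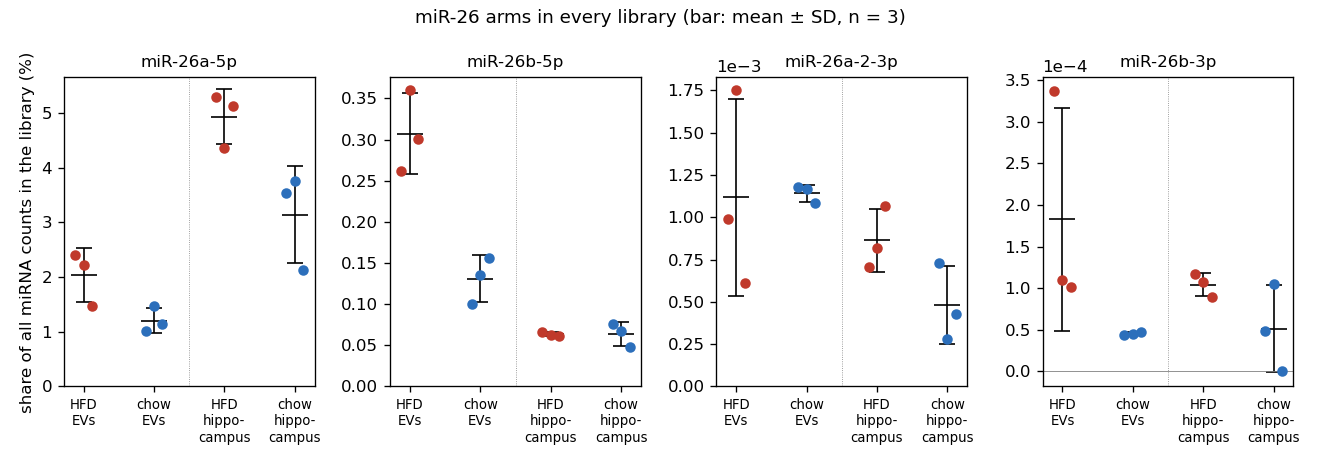
Share of all miRNA counts in percent (vertical axes, a scale of its own for each arm) for each library of the 4 groups, with the mean and SD of 3 libraries as bars. miR-26a-5p is highest in hippocampus and miR-26b-5p in EVs, with the 3 HFD EV libraries at 0.262 to 0.360%.

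Whether the arms differed with diet in adipose tissue EVs was tested between the HFD and the chow libraries. miR-26b-5p stood at 2409, 3038 and 2778 CPM (counts scaled to a common library size with TMM factors) in HFD EVs, against 1113, 1206 and 2213 CPM in chow EVs. The HFD libraries were all above the chow libraries, and chow library 3 lay nearest to them. Its log2 fold change was 0.86 (SE 0.33, 95% interval 0.097 to 1.62), with an unadjusted p of 0.0317 and an adjusted p of 0.152 by edgeR's quasi-likelihood test, so it did not pass the threshold of 0.05. It passed when libraries were scaled by their totals (1.23, adjusted p = 0.0299), without a filter on low counts (1.08, adjusted p = 0.0393) and without chow EV library 3 (1.34, adjusted p = 0.0310), and over all alternatives its adjusted p lay between 0.0299 and 0.393. Scaling by totals moved the median of all miRNAs by 0.29, and relative to that median miR-26b-5p stood at 0.99 with TMM and 1.07 with totals. With totals that leave out miR-148a-3p its log2 fold change was 0.72 (edgeR adjusted p = 0.220), which did not pass.

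miR-26a-5p stood at 22051, 18782 and 13652 CPM in HFD EVs, against 11243, 13038 and 16098 CPM in chow EVs. The diets overlapped, since HFD library 3 was below chow library 3. The log2 fold change was 0.43 (SE 0.26, 95% interval -0.17 to 1.03, adjusted p = 0.327). It was 0.27 when HFD EV library 1 was left out, 0.75 when HFD EV library 3 was, 0.68 when chow EV library 3 was, 0.75 with library totals and 0.28 with totals that leave out miR-148a-3p, and none of these passed. miR-26a-2-3p, the passenger from the Ctdsp2 hairpin, held 59, 32 and 12 counts in HFD EVs and 27, 26 and 23 counts in chow EVs, or 9.86 ± 4.62 and 12.9 ± 2.49 CPM (SD, n = 3). Its log2 fold change was -0.39 (SE 0.44, 95% interval -1.41 to 0.64, adjusted p = 0.639) and turned to 0.038 without HFD EV library 3.

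edgeR therefore called 0 of the 3 members tested in EVs, and DESeq2 and limma-voom called 0 as well. With edgeR, 1 of the 3 had an unadjusted p under 0.05, as did 99 of all 389 miRNAs tested. Of all 389 miRNAs tested, 17 were called (4.37%), 13 of them higher (3.34%) and 4 lower (1.03%) in HFD EVs, and 33 higher and 5 lower with libraries scaled by totals. With totals that leave out miR-148a-3p, the most abundant miRNA, the split turned to 8 higher and 10 lower, and the median of all miRNAs was -0.27 against -0.13 with TMM. The count of calls ran from 0 to 21 when 1 library was left out. The TMM-scaled CPM of 32.6% of all tested miRNAs did not overlap between diets, which is the background for the separation of miR-26b-5p. miR-26b-3p was too low to be tested. A list of 6 leukocyte miRNAs, none at 0, held 0.301 to 0.855% of counts in HFD EVs and 0.112 to 0.136% in chow EVs, and its part in the value of miR-26b-5p was not tested. The same holds for the fat list given above and for a pair of endothelial miRNAs, which held 0.106 to 0.115% in HFD EVs and 0.180 to 0.273% in chow EVs.

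The same arms were tested between diets in hippocampus. miR-26a-5p stood at 56168, 38629 and 45805 CPM in HFD hippocampus, against 31877, 37629 and 28237 CPM in chow hippocampus. The groups did not overlap, though HFD library 2 and chow library 2 lay close together. The log2 fold change was 0.52 (SE 0.22, 95% interval 0.0093 to 1.04), with an unadjusted p of 0.0468 and an adjusted p of 0.164, which did not pass. Over all alternatives its adjusted p lay between 0.0643 and 0.466.

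miR-26b-5p stood at 706, 555 and 550 CPM in HFD hippocampus, against 684, 681 and 636 CPM in chow hippocampus. The highest and the lowest library were both HFD libraries. Its log2 fold change was -0.14 (SE 0.18, 95% interval -0.55 to 0.27, adjusted p = 0.605). The sign turned without HFD hippocampus library 2 (0.037) or 3 (0.052) and without a filter (0.033). Scaling by totals gave -0.0069 and moved the median of all miRNAs by 0.16.

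miR-26a-2-3p held 91, 91 and 132 counts in HFD hippocampus and 30, 16 and 10 counts in chow hippocampus. Scaled for depth these were 7.49, 7.23 and 9.52 CPM in HFD and 6.60, 2.80 and 5.68 CPM in chow libraries, without overlap. The log2 fold change was 0.72 (SE 0.37, 95% interval -0.14 to 1.58, adjusted p = 0.235). edgeR called 0 of 3 members tested, and DESeq2 and limma-voom called 0. With edgeR, 1 of the 3 had an unadjusted p under 0.05, as did 164 of all 552 miRNAs tested. Of all 552 miRNAs tested 65 were called (11.8%), 24 of them higher (4.35%) and 41 lower (7.43%), and 17 higher and 16 lower with library totals. Some called entries had identical values, such as miR-122-5p and miR-122b-3p (log2 fold change -3.15 for each), so these are counts of entries. Leaving out 1 library gave 8 to 123 calls, while 37.3% of all tested miRNAs did not overlap between diets. The endothelial pair held 0.546 to 0.643% of counts in HFD and 0.354 to 0.518% in chow hippocampus, 4 red cell miRNAs held 0.00895 to 0.0184% and 0.0247 to 0.0486%, 3 muscle miRNAs held 0.0194 to 0.0387% and 0.0472 to 0.0647%, and the fat list 3.55 to 4.37% and 5.48 to 7.23%, each in HFD and in chow hippocampus. The part of these lists in the values above was not tested.

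**Figure D2:**
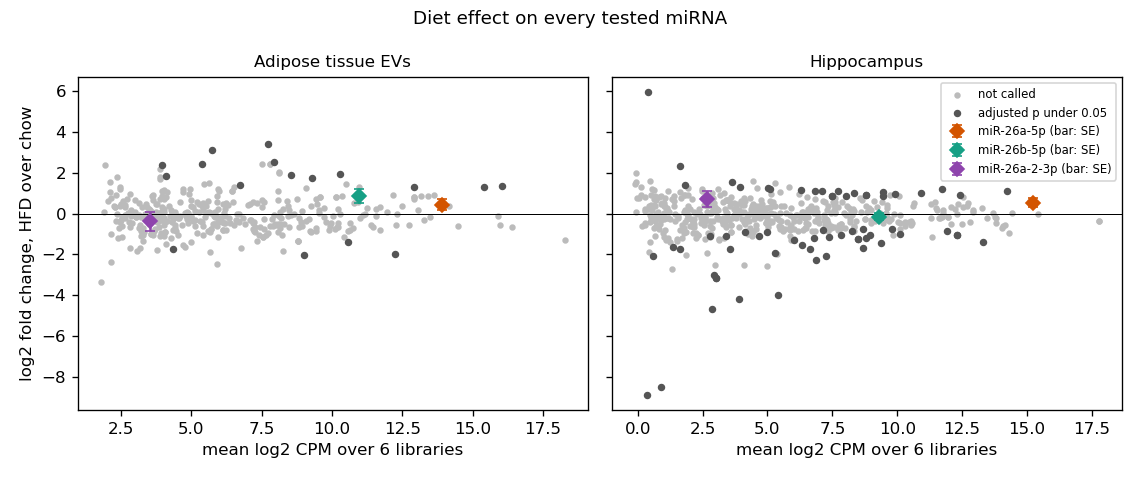
Log2 fold change of HFD over chow (vertical axes) against mean log2 CPM (horizontal axes) for 389 miRNAs in EVs and 552 in hippocampus, with called miRNAs in dark grey and the 3 tested arms as coloured diamonds with their SE. The arms lie within the cloud of miRNAs that were not called, miR-26b-5p at 0.86 in EVs and at -0.14 in hippocampus.

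Whether a diet effect differed between EVs and hippocampus was tested over all 12 libraries and the 519 miRNAs kept of those in both tables. For miR-26b-5p the effect in EVs exceeded that in hippocampus by 1.14 on the log2 scale (SE 0.44, 95% interval 0.20 to 2.08), with an unadjusted p of 0.0209 and an adjusted p of 0.154, which did not pass. The value was 0.72 when chow EV library 1 was left out and was 0.75 with DESeq2. Over all 519 miRNAs the median difference was 0.23, and relative to it miR-26b-5p stood at 0.91. For miR-26a-5p the difference was 0.062 (SE 0.44, 95% interval -0.86 to 0.99, adjusted p = 0.945), a value whose sign turned without 10 of the 12 libraries in turn. Relative to the median difference miR-26a-5p stood at -0.16. Its diet effects in the separate fits were 0.43 in EVs and 0.52 in hippocampus. For miR-26a-2-3p the difference was -0.99 (SE 0.61, 95% interval -2.28 to 0.30, adjusted p = 0.351). An unadjusted edgeR p under 0.05 was found for 1 of 3 members and for 117 of 519 miRNAs. edgeR called 0 of the 3 here, against 30 of 519 miRNAs (5.78%), and limma-voom and DESeq2 called 0. Without HFD EV library 2 the count over all miRNAs was 15.

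**Figure D3:**
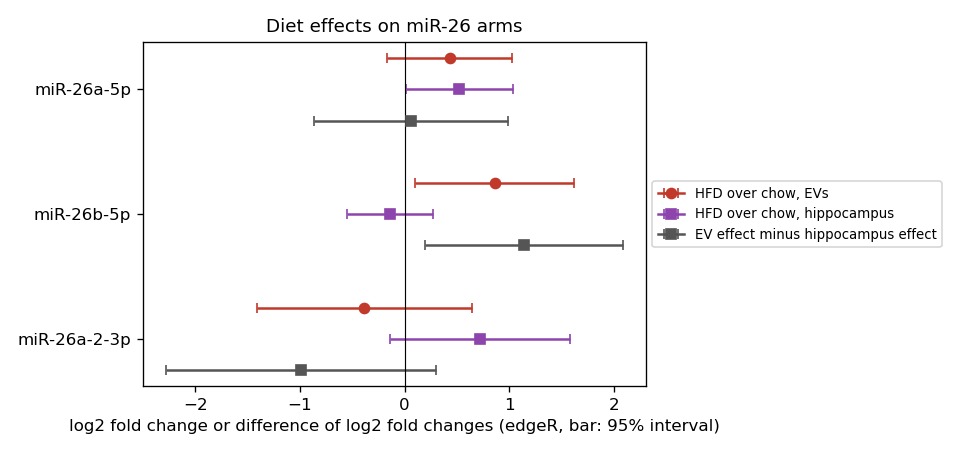
Log2 fold changes of HFD over chow in EVs and in hippocampus, and the EV effect minus the hippocampus effect, for the 3 tested arms (points, with 95% intervals as bars). For miR-26b-5p the EV value is 0.86 and the hippocampus value -0.14, each from a fit of 6 libraries. The difference is 1.14, from the fit of all 12 libraries, and none of these passed after adjustment.

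The 2 guides were opposite in their distribution between sample types. In the fit of all 12 libraries, miR-26b-5p was higher and miR-26a-5p lower in EVs on both diets. In HFD mice miR-26b-5p was at 3111 ± 390 CPM in EVs and 533 ± 56.5 CPM in hippocampus (SD, n = 3; log2 fold change 2.55, SE 0.33, adjusted p = 3.25e-06). miR-26a-5p was at 20554 ± 4547 CPM in EVs and 41215 ± 5477 CPM in hippocampus (log2 fold change -1.004, SE 0.31, adjusted p = 0.00748). For miR-26a-2-3p the values were 11.2 ± 5.25 and 7.14 ± 1.05 CPM (log2 fold change 0.64, SE 0.42, 95% interval -0.25 to 1.52, adjusted p = 0.167), which did not pass. This value was 0.046 without HFD EV library 2, 0.12 without a filter, 0.36 with library totals, and 0.39 to 0.40 without chow hippocampus library 3 or any 1 chow EV library. edgeR, DESeq2 and limma-voom each called 2 of 3 arms in HFD mice.

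In chow mice the same fit put miR-26b-5p at 1652 ± 634 CPM in EVs and 623 ± 168 CPM in hippocampus (SD, n = 3), or 1.41 higher on the log2 scale in EVs (SE 0.32, adjusted p = 8.18e-04). It put miR-26a-5p at 14774 ± 2632 CPM in EVs and 30930 ± 11343 CPM in hippocampus, with a log2 value of EVs over hippocampus of -1.07 (SE 0.31, adjusted p = 0.00524), and -0.70 without chow hippocampus library 2 (adjusted p = 0.0414). The passenger miR-26a-2-3p was higher in EVs, at 14.1 ± 2.27 CPM against 4.51 ± 1.77 CPM in hippocampus (log2 fold change 1.63, SE 0.45, adjusted p = 0.0035). edgeR, DESeq2 and limma-voom each called 3 of 3 arms in chow mice. These calls stand against a background in which most miRNAs differed, 423 of 519 in HFD mice (81.5%) and 412 of 519 in chow mice (79.4%). In HFD mice 38.9% of all miRNAs were higher and 42.6% lower in EVs, and in chow mice 34.5% were higher and 44.9% lower. The signs of all 3 arms held with TMM and with library totals, which moved the median of all miRNAs by -0.28 in HFD and -0.31 in chow mice. EV and hippocampus counts come from separate tables, so tissue and table cannot be told apart.

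By share of counts, miR-26a-5p ran from HFD hippocampus (4.93 ± 0.50%) through chow hippocampus (3.14 ± 0.88%) and HFD EVs (2.03 ± 0.49%) to chow EVs (1.21 ± 0.24%; SD, n = 3). HFD EVs and chow hippocampus, neighbours in this order, overlapped, at 1.48 to 2.40% and 2.13 to 3.76%. For miR-26b-5p the order was HFD EVs (0.307 ± 0.050%), chow EVs (0.131 ± 0.028%), chow hippocampus (0.0640 ± 0.014%) and HFD hippocampus (0.0637 ± 0.0026%). The hippocampus groups overlapped and stood below every EV library, of which the lowest held 0.1002%.

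The ratio of the guides within a library needs no scaling between libraries. miR-26a-5p had 9.16, 6.18 and 4.91 counts for each count of miR-26b-5p in HFD EVs, against 10.1, 10.8 and 7.28 in chow EVs. In hippocampus it had 79.5, 69.6 and 83.2 in HFD libraries, against 46.6, 55.3 and 44.4 in chow libraries. The EV and the hippocampus libraries did not overlap. Between diets the EV libraries overlapped and the hippocampus libraries did not.

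The mean log2 ratio in EVs was 2.71 ± 0.45 with HFD and 3.21 ± 0.31 with chow (SD, n = 3), a difference of -0.50 with a two-sided exact permutation p of 0.2. Without 1 library it lay between -0.75 (HFD EV library 1) and -0.30 (HFD EV library 3). In hippocampus it was 6.27 ± 0.13 with HFD and 5.60 ± 0.17 with chow (SD, n = 3), a difference of 0.67 with an exact permutation p of 0.1. This is the smallest p that 3 against 3 libraries allow, so the design cannot reach 0.05. Over the 4 ratio comparisons made, both adjusted values were 0.267 (exact permutation test, Benjamini-Hochberg). The guides differ at 2 positions, and how the authors assigned reads with a mismatch was not stated in the labels. miR-26b-5p held 10.9 to 20.3% of the miR-26a-5p count in HFD EVs, 9.25 to 13.7% in chow EVs, 1.202 to 1.44% in HFD hippocampus and 1.81 to 2.25% in chow hippocampus, and the part of misassigned miR-26a-5p reads in these counts was not tested.

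**Figure D4:**
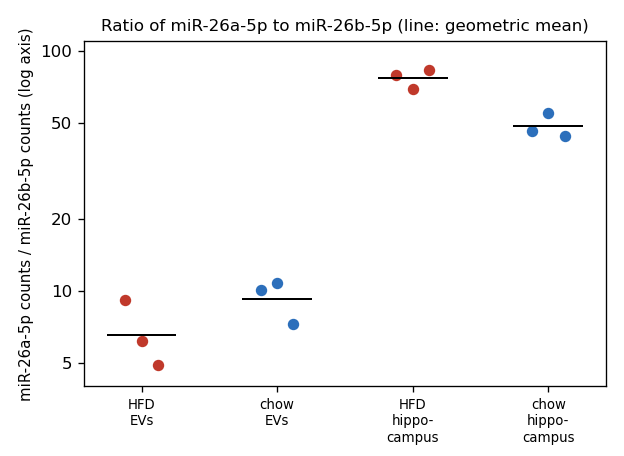
Counts of miR-26a-5p per count of miR-26b-5p (vertical log axis) in each library of the 4 groups, with the geometric mean as a line. EV libraries lie between 4.91 and 10.8 and hippocampus libraries between 44.4 and 83.2, with the HFD hippocampus libraries above the chow ones.

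The passenger arms were far below their guides. miR-26b-3p held 20, 2 and 2 counts in HFD EVs and 1 count in each chow EV library. Pooled over libraries and set on totals, the ratio of HFD to chow EVs was 5.46 (95% interval 1.66 to 28.3, counting error only), and without HFD EV library 1, which held 20 of the 24 HFD counts, it was 2.33 (0.395 to 15.9). In hippocampus miR-26b-3p held 15, 12 and 11 counts in HFD libraries and 2, 6 and 0 in chow libraries. The 0 of 2331091 counts in chow hippocampus library 3 allows a share of up to 0.000158%, the upper end of the exact 95% binomial interval. The pooled ratio of HFD to chow was 1.59 (95% interval 0.729 to 3.93).

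miR-26b-5p had 777, 3288 and 2957 counts for each count of miR-26b-3p in HFD EVs, against 2300, 3023 and 3315 in chow EVs. It had 572, 582 and 694 in HFD hippocampus, and 1553 and 648 in the 2 chow hippocampus libraries with a count of the 3p arm. The difference of mean log2 ratios was -0.54 in EVs (exact permutation p = 0.6, adjusted 0.6), and turned to 0.13 without HFD EV library 1. In hippocampus it was -0.71 (exact permutation p = 0.2, adjusted 0.267), where 3 against 2 libraries cannot go below 0.1. It was -0.079 without chow hippocampus library 1 and -1.34 without chow hippocampus library 2. With 0.5 added to each count the difference was -0.18 in EVs and -1.01 in hippocampus, where all 6 libraries then entered. The counts behind the 3p arm, often 1 or 2, set the precision of these ratios.

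Of the miR-26a passengers, miR-26a-2-3p was counted in every library, whereas miR-26a-1-3p held 7, 0 and 0 counts in HFD EVs and 0 in each chow EV library. It held 3, 1 and 8 counts in HFD hippocampus and 0, 2 and 1 in chow hippocampus. The arm of the Ctdsp2 hairpin thus made up 89.4 to 100% of miR-26a passenger counts in HFD EVs and 100% in each chow EV library, and 94.3 to 98.9% in HFD hippocampus and 88.9 to 100% in chow hippocampus. The shares of the 5p arm that came from either hairpin cannot be read from these counts. miR-26a-5p had 2156, 1270 and 2422 counts for each count of its 2 passengers together in HFD EVs and 860, 1257 and 1049 in chow EVs. It had 7258, 5287 and 4538 in HFD hippocampus and 4828, 11947 and 4519 in chow hippocampus. Every EV library was below every hippocampus library.

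The miR-26 guides were set beside 24 miRNAs tied to the formation or browning of fat cells, a list that includes both. In EVs all 24 were tested, 2 rose and 2 fell with HFD, where 3.34% of all tested miRNAs rose and 1.03% fell. The median log2 fold change was -0.41, or -0.54 over the 22 other than miR-26, against -0.13 over all 389. miR-335-5p, from an intron of the imprinted gene Mest, rose to 1195 CPM in HFD EVs, against 354 CPM in chow EVs (log2 fold change 1.76, SE 0.38, adjusted p = 0.0483). miR-21a-5p, abundant in inflamed fat, rose to 107305 CPM, against 42292 CPM in chow EVs (1.34, SE 0.22, adjusted p = 0.0217). miR-143-3p, which increases as fat cells differentiate, fell to 2512 CPM, against 9820 CPM in chow EVs (-1.97, SE 0.32, adjusted p = 0.0217). miR-193a-3p, of a family active in brown fat, fell to 10.7 CPM, against 36.1 CPM in chow EVs (-1.74, SE 0.35, adjusted p = 0.0364).

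All 4 calls ended when library 1 or library 2 of either EV group was left out (edgeR adjusted p between 0.0580 and 0.169), and that of miR-193a-3p also without chow library 3 (0.0521) or HFD library 3 (0.0833). Of a list of 19 anti-adipogenic miRNAs, 15 were tested in EVs and edgeR called 0. DESeq2 and limma-voom called 0 of these too, and the median was -0.10. With edgeR, 4 of the 15 had an unadjusted p under 0.05, against 99 of all 389 miRNAs tested.

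In hippocampus 22 of the adipogenesis list were tested, 1 rose and 2 fell, a share of calls near the 11.8% over all tested miRNAs (4.35% rose and 7.43% fell). The list had a median of -0.15, or -0.19 over the 20 other than miR-26, against -0.13 over all 552. miR-107-3p, which is linked to insulin sensitivity and close in sequence to miR-103-3p, rose to 350 CPM in HFD hippocampus, against 192 CPM in chow (log2 fold change 0.87, SE 0.19, adjusted p = 0.0262). miR-148a-3p, abundant in liver and fat, fell to 6263 CPM, against 16533 CPM in chow (-1.40, SE 0.26, adjusted p = 0.0200). miR-193b-3p, of the same family as miR-193a-3p, fell to 6.58 CPM, against 22.3 CPM in chow (-1.76, SE 0.37, adjusted p = 0.0242).

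Of the anti-adipogenic list 16 were tested in hippocampus, 2 rose and 0 fell, against 4.35% and 7.43% of all tested miRNAs, so that the share called was near the 11.8% called over all. The median was 0.25. Those that rose were miR-22-3p, an inhibitor of fat cell differentiation in human cells, at 5096 CPM in HFD and 2197 CPM in chow hippocampus (log2 fold change 1.21, SE 0.17, adjusted p = 0.00589), and miR-125b-5p, abundant in brain, at 7440 and 4003 CPM (0.89, SE 0.20, adjusted p = 0.0292). miR-22-3p passed without any 1 of the 6 libraries. The other 4 calls in hippocampus each ended without HFD library 1 or 3 (adjusted p between 0.0694 and 0.124). Those of miR-107-3p, miR-148a-3p and miR-125b-5p ended without chow library 2 (0.0628, 0.0689 and 0.0642), those of miR-193b-3p and miR-125b-5p without chow library 1 (0.0562 and 0.0648), and that of miR-193b-3p without HFD library 2 (0.0715).

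The difference between the diet effects in EVs and in hippocampus was called for 2 of 24 of the adipogenesis list, both higher, where 4.82% of all miRNAs were called higher. These were miR-335-5p (2.59 on the log2 scale, SE 0.48, adjusted p = 0.0038) and miR-21a-5p (1.80, SE 0.37, adjusted p = 0.00735). The call of miR-335-5p held without any 1 of the 12 libraries, and that of miR-21a-5p ended without HFD EV library 2 (0.0730), chow EV library 1 (0.0667) or 2 (0.0636), or chow hippocampus library 3 (0.0713). Of the anti-adipogenic list edgeR called 0 of 18, while DESeq2 called 4 and limma-voom 0. With edgeR, 5 of the 18 had an unadjusted p under 0.05, against 117 of all 519 miRNAs. The median over the adipogenesis list was 0.33 and over the anti-adipogenic list -0.078, against 0.23 over all 519.

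**Figure D5:**
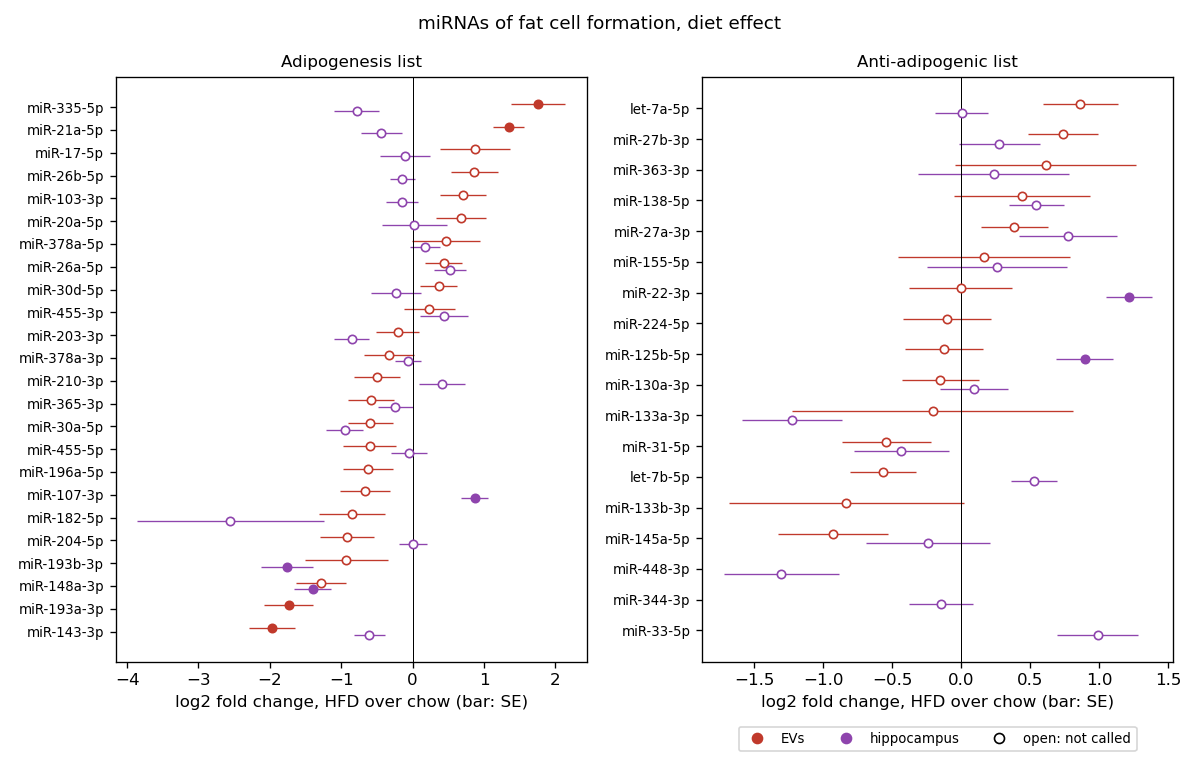
Log2 fold change of HFD over chow (horizontal axes, with SE) for each tested miRNA of the adipogenesis list (left) and the anti-adipogenic list (right), with EVs in red, hippocampus in purple and filled points for adjusted p under 0.05. miR-26a-5p and miR-26b-5p are open in both sample types, and filled points in EVs are miR-335-5p, miR-21a-5p, miR-193a-3p and miR-143-3p.

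The miRNAs whose log2 CPM followed the guides most closely differed between guides and sample types. These correlations are over 6 libraries of 2 diets that share their scaling, and are a description. In EVs miR-26b-5p was followed by let-7g-5p (Pearson r 0.99), miR-340-5p (0.99) and miR-16-5p (0.99), and 38 miRNAs had an r over 0.8. miR-26a-5p was followed there by miR-23b-3p (0.95), miR-221-5p (0.93) and miR-28a-5p (0.90). The r between the guides was 0.71 in EVs, where miR-26b-5p came 40 among 388 miRNAs ordered by their likeness to miR-26a-5p. In hippocampus it was -0.0074. miR-26a-5p was followed there by let-7e-3p (0.98), miR-325-5p (0.97) and miR-99a-5p (0.96), and miR-26b-5p by miR-873a-3p (0.95), miR-100-5p (0.95) and miR-500-3p (0.87).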

How the data were processed

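The deposited values are raw read counts per small RNA with no normalisation, per the file headers, and the submitters' processing notes list Bowtie with no version. What genome build, annotation, counting tool and filters they used was not stated. Among hippocampus entries, 5 that were blank for HFD (at most 3 counts in the other libraries) were left out, and 1 further HFD column of the hippocampus table, which matched no sample, was not used. No entry other than the arm itself lay within 5% of miR-26a-5p, miR-26b-5p or miR-26a-2-3p in every library. That check covered these arms only, and reads of other miRNAs may have been counted under more than 1 name. In hippocampus miR-9-5p and miR-9b-3p had a mean log2 CPM of 17.7628 and 17.7598, and both stayed in the library totals. Replicate pairs differed beyond sampling noise (chi-square per degree of freedom 80.4 to 704), so no pair was the same library read again. Such values cannot exclude separate libraries made from the same RNA or animal.

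Counts were filtered with filterByExpr, scaled with TMM and tested two-sided with edgeR 4.0.16 (glmQLFit, robust, glmQLFTest) in R 4.3.3, adjusted by Benjamini-Hochberg across every miRNA in the fit and called at an adjusted p under 0.05. Diet comparisons were fitted on 6 libraries, the others on all 12 over shared entries. The fits were also run on simulated data, with changes far larger than the diet effects of the members. That run therefore does not measure the sensitivity to effects of their size. In a single library, 3 counts correspond to 0.465 to 2.00 CPM (EVs) or 0.216 to 1.70 CPM (hippocampus). Alternatives were library totals, DESeq2 1.42.0, limma-voom (limma 3.58.1), no filter, robust fitting off, the replicate number as a block, all 12 libraries, totals without the most abundant miRNAs, 0.5 added to each count, and each library left out. Log2 CPM used a prior count of 2. Library preparation can favour one sequence over another, so ratios between arms are compared between libraries.

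The members and lists were chosen with earlier results of these data known. Named miRNAs are the members, miR-26a-1-3p, called members of both fat lists, and the 3 miRNAs most like each guide per sample type. The red cell, endothelial, epithelial and muscle marker lists held at most 1.88% of counts in any library.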

Additional observations from a re-analysis of the deposited data

How the results depend on the processing

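Depth limits miR-26b-3p and miR-26a-1-3p most, and neither was tested. Calls in EVs numbered 17, but 38 with library totals, 55 with DESeq2, 56 without a filter and 38 in the fit of all 12 libraries. Leaving out 1 library gave 0 to 21. The 0 came on leaving out library 1 or 2 of either diet. For HFD libraries 1 and 2 and chow libraries 1 and 2, in this order, edgeR then had 82, 66, 80 and 95 miRNAs at an unadjusted p under 0.05, DESeq2 called 39, 25, 32 and 40, and limma-voom 2, 1, 6 and 1. Calls in hippocampus numbered 65, but 33 with totals, 109 with DESeq2, 29 in the fit of all 12 libraries, and 8 to 123 without 1 library (8, 38 and 9 without HFD library 1, 2 or 3, and 33, 23 and 123 without chow library 1, 2 or 3). Calls of a difference between diet effects numbered 30, but 76 with DESeq2 and 15 to 42 without 1 library (15 without HFD EV library 2). In hippocampus DESeq2 called 5 of the adipogenesis list and 7 of the anti-adipogenic list, against 3 and 2 with edgeR.

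miR-26b-5p in EVs passed with totals (1.23), without a filter (1.08) and without chow EV library 3, and spanned 0.73 to 1.34 without 1 library. It did not pass with totals that leave out miR-148a-3p (0.72), with DESeq2 (0.90, adjusted p = 0.103) or with limma-voom (0.93, adjusted p = 0.103). miR-26a-2-3p in EVs spanned -0.76 to 0.038. In hippocampus miR-26b-5p was at 0.033 without a filter and -0.20 to 0.052 without 1 library. The difference of diet effects for miR-26a-5p was -0.38 with DESeq2, -0.28 without a filter and -0.30 to 0.095 without 1 library. That of the log2 ratio of the miR-26b arms in EVs was -0.91 to 0.13. Totals without miR-148a-3p put the share of the 4 members at 3.06% in HFD EVs and 2.44% in chow EVs, and totals without miR-9-5p and miR-9b-3p at 8.68% in HFD and 5.96% in chow hippocampus, by construction. The causes of the other changes were not tested. The contrasts between sample types kept their direction and their side of the threshold for all 3 tested arms under all alternatives.

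Within a sample type, deviations of equally numbered HFD and chow libraries correlated at -0.35 to 0.091, and those of unequally numbered ones at -0.26 to 0.31. With 3 libraries per group these values cannot exclude a pairing by replicate number. A pairing of EV with hippocampus libraries was not examined, and the fits of all 12 libraries treat them as independent. With the replicate block 9 miRNAs were called in EVs and 35 in hippocampus, miR-26b-5p stood at 0.93 in EVs (edgeR adjusted p = 0.137), and the difference of diet effects for miR-26a-5p at -0.010.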
